A study of Mus musculus with 3 samples.

Results

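The cell cycle was read here from 39 genes in single cells of the sinoatrial node region of newborn mice. The genes were chosen by symbol among 28001 features, and each was counted as unique molecular identifiers (UMIs), the molecules read. They are 23 genes of the G2 phase and mitosis, 12 genes of DNA replication, the E-type cyclin genes Ccne1 and Ccne2 and the D-type cyclin genes Ccnd1 and Ccnd2. All 39 were found under 1 gene ID each. The mice were of the ICR strain at postnatal day 2 and all carried HCN4H2BGFP. In this allele the gene of the pacemaker channel HCN4 drives green fluorescent protein (GFP). GFP is a reporter, and whether that gene was active in a GFP-positive cell was not examined here. The design text calls the animals HCN4-GFP knockin mice. There were 3 droplet libraries with 1 library per group. Cells from the sinoatrial node region were sorted by flow cytometry, those with GFP into the GFP-positive library and those without into the GFP-negative library. The RA library was not sorted. Its title says RA while its tissue label says sinoatrial node region, and it is called RA here. The labels do not state how many animals stand behind a library.

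A dividing cell passes from growth (G1) into DNA replication (S phase), a second growth phase (G2) and mitosis. D-type cyclins with Cdk4 or Cdk6 drive G1, E-type cyclins with Cdk2 start S phase, and cyclins A and B with Cdk1 carry the cell into mitosis. The E2F factors activate replication genes late in G1, and the DREAM complex holds mitotic genes silent until B-MYB and FOXM1 activate them in G2. Mouse heart muscle cells leave the cycle in the days after birth, and many of them end with a round of replication and nuclear division without cell division, which leaves them with more than 1 nucleus.

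Promoter letters are shown for 5 genes because they hold the motifs known for the 2 waves. TTTGAA is the core of the cell cycle homology region of mitotic genes, and TTCCCGC and TTGGCGC are forms of the E2F motif. Each line gives the 250 bases before the transcription start from RefSeq in GRCm38.p6, with any of the 3 motifs on either strand in capitals. They are Cdc20 at chr4:118437344-118437593 on the minus strand, Ube2c at chr2:164769679-164769928 on the plus strand, Cdk1 at chr10:69352913-69353162 on the minus strand, Mcm5 at chr8:75109259-75109508 on the plus strand and Mcm6 at chr1:128359706-128359955 on the minus strand.
Cdc20: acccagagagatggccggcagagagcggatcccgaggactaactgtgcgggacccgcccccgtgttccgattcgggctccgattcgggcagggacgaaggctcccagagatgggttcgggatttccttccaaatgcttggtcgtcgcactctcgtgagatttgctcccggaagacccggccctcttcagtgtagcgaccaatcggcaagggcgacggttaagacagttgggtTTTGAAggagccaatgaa
Ube2c: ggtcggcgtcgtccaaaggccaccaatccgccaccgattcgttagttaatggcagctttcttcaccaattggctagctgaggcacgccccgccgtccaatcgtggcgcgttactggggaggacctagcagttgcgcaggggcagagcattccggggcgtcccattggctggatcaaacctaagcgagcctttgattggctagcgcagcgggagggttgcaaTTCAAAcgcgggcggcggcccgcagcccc
Cdk1: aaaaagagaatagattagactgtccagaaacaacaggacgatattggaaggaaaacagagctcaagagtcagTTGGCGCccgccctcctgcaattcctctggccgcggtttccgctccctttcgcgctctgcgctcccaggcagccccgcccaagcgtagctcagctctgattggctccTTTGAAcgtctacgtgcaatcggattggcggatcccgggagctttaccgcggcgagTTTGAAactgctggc
Mcm5: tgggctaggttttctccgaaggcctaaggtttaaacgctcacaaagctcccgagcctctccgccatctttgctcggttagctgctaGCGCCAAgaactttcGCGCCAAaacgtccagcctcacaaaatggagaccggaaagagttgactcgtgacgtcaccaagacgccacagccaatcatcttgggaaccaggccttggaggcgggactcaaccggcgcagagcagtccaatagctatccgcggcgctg
Mcm6: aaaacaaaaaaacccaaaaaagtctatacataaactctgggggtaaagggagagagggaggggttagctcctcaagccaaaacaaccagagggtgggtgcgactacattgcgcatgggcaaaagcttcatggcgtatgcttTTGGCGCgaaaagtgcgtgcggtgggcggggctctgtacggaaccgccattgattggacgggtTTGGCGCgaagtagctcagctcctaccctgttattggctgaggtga
Cdc20 and Ube2c hold the TTTGAA core, written TTCAAA in Ube2c where it lies on the other strand. Mcm5 and Mcm6 hold the TTGGCGC form, and Cdk1 holds both kinds.

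A RefSeq promoter window was matched for 31 of the 39 genes. TTTGAA was found in 8 of 20 mitotic genes (40.0%) and in 1 of 10 replication genes (10.0%, Mcm2), against 18.3% of the 27025 genes with a window. With the 50 bases after the start added, it was found in 15 of 20 mitotic genes (75.0%) and again in 1 of 10 replication genes, against 20.2% of all genes. One of the E2F forms was found in 5 of 10 replication genes (50%: Mcm5, Mcm6, Mcm7, Rrm1 and Cdc6) and in 3 of 20 mitotic genes (15.0%: Mki67, Ccnb1 and Cdk1), against 6.45% of all genes. The CCAAT box stood in 18 of 20 mitotic genes (90.0%) and 8 of 10 replication genes (80.0%), against 37.5% of all genes. Both strands were searched, and CCAAT on the minus strand can overlap TTGGCGC. A match is a description of the letters in the window, not a binding site.

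The files held 3346 barcodes in the GFP-positive library, 3276 in the GFP-negative library and 1450 in RA, with 50416748, 38204709 and 19975326 UMIs in that order. After filters on genes read and mitochondrial UMIs, 3289, 3032 and 1289 cells were kept, with median depths of 12429, 11417 and 14143 UMIs. The GFP-positive and GFP-negative libraries shared 19 cell barcodes, the GFP-positive and RA libraries 8, and the GFP-negative and RA libraries 9. Haemoglobin made up 0.0927% of the UMIs in the GFP-positive library, 8.89% in the GFP-negative library and 12.4% in RA. Classes were set by marker UMIs. The GFP-positive library held 2480 endothelial-like, 498 epicardial-like and 159 cardiomyocyte-like cells, so most cells sorted for the pacemaker reporter were not of the cardiomyocyte-like class. The GFP-negative library held 1484 fibroblast-like, 459 cells with fibroblast and mural markers, 332 mural-like, 187 endothelial-like, 100 macrophage-like, 99 erythroid-like, 63 glial-like and 57 cardiomyocyte-like cells. RA held 468 fibroblast-like, 255 endothelial-like, 196 cells with fibroblast and mural markers, 89 macrophage-like, 82 erythroid-like, 70 cardiomyocyte-like and 56 mural-like cells. The cardiac troponin gene Tnnt2 was read in 100% of cardiomyocyte-like cells of each library, against 47.0%, 26.1% and 53.1% of the other cells in the GFP-positive, GFP-negative and RA libraries. Endothelial Cdh5 was read in 96.0%, 96.8% and 96.9% of endothelial-like cells, against 39.4%, 3.34% and 10.3% of the others. Epicardial Upk3b was read in 100% of GFP-positive epicardial-like cells, against 43.5% of the others. In the GFP-negative and RA libraries Pdgfra was read in 63.1% and 70.1% of fibroblast-like cells. Myh11 was read there in 76.2% and 53.6% of mural-like cells. Numbers of cells in the sorted libraries follow the sort. Since each group is a single library, nothing could be tested and no spread between replicates was known, and intervals are 95% intervals of counting error only.

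Cells that passed the calls given below were found in each of the 8 classes other than erythroid-like cells. At lower shares they were found among erythroid-like cells as well. To give each cell the same chance, every cell was thinned to 3000 UMIs. A cell was called mitotic-positive where at least 3 different mitotic genes were read and S-phase-positive where at least 3 different replication genes were read. Among endothelial-like cells, 9.48% (8.35% to 10.7%, 235 of 2480) were mitotic-positive in the GFP-positive library, 12.6% (8.18% to 18.4%, 23 of 182) in the GFP-negative library and 11.95% (8.21% to 16.6%, 30 of 251) in RA. Their S-phase-positive share was 6.57% (5.63% to 7.62%) in the GFP-positive library, 14.3% (9.55% to 20.2%) in the GFP-negative library and 8.76% (5.57% to 13.0%) in RA. The mitotic intervals of the 3 endothelial-like sets overlap, while the S-phase interval of the GFP-positive set lies below that of the GFP-negative set.

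Epicardial-like cells, which were compared in the GFP-positive library alone, had 9.84% (7.37% to 12.8%, 49 of 498) mitotic-positive and 10.0% (7.54% to 13.0%, 50 of 498) S-phase-positive cells. Fibroblast-like cells had 11.6% (9.96% to 13.3%, 168 of 1454) mitotic-positive and 10.2% (8.67% to 11.8%) S-phase-positive cells in the GFP-negative library. In RA both fibroblast-like shares were 15.0% (11.8% to 18.6%, 69 of 461 each). Cells with fibroblast and mural markers had 15.4% and 16.1% mitotic-positive and 15.4% and 15.0% S-phase-positive cells in the GFP-negative and RA libraries. Mural-like cells had 14.5% (46 of 317) and 10.9% (6 of 55) mitotic-positive and 16.4% (52 of 317) and 14.5% (8 of 55) S-phase-positive cells in those libraries, glial-like cells of the GFP-negative library 13.1% (8 of 61) mitotic-positive cells, and macrophage-like cells 11.1% (11 of 99) and 12.5% (11 of 88).

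By these calls, cardiomyocyte-like cells had more mitotic-positive than S-phase-positive cells in each library. Both calls needed 3 different genes, but the mitotic list is longer than the replication list. The mitotic and S-phase shares are therefore not on the same scale. In the GFP-positive library 10.1% (5.86% to 15.8%, 16 of 159) were mitotic-positive and 5.66% (2.62% to 10.5%, 9 of 159) were S-phase-positive. In the GFP-negative library the shares were 23.6% (13.2% to 37.0%, 13 of 55) and 5.45% (1.14% to 15.1%, 3 of 55), and in RA they were 14.5% (7.17% to 25.04%, 10 of 69) and 7.25% (2.39% to 16.1%, 5 of 69). That makes 0.562 S-phase-positive cells per mitotic-positive cell in the GFP-positive library, 0.231 in the GFP-negative library and 0.5 in RA. The same ratio was 0.694, 1.13 and 0.733 in endothelial-like cells, 1.02 in epicardial-like cells, 0.881 and 1 in fibroblast-like cells of the GFP-negative and RA libraries, and 1.27 and 1.09 in macrophage-like cells of those libraries. The cardiomyocyte-like ratios rest on 9, 3 and 5 S-phase-positive cells. Because the lists differ in length, a ratio under 1 does not show that more cells were in mitosis than in S phase. The effect of list length was not tested.

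Erythroid-like cells had the lowest shares. In the GFP-negative library 3.03% (0.629% to 8.60%, 3 of 99) were mitotic-positive and 0 of 99 were S-phase-positive, which the exact interval allows to be up to 3.66%. In RA 1.22% (1 of 82) were positive for each. The 3 mitotic-positive cells of the GFP-negative library had 4 or 5 mitotic genes read, and the 1 of RA had 13. Haemoglobin made up 91.2% and 90.8% of their UMIs, so few of their 3000 UMIs could come from other genes and their low shares give no background level. Outside haemoglobin they held 2880 mitotic UMIs per 1000000 in the GFP-negative library and 2889 in RA, where barcodes with fewer than 500 genes held 876 and 681. The next highest classes were glial-like cells at 1467 in the GFP-negative library and cells with fibroblast and mural markers at 1432 in RA. The RA value leans on the 1 positive cell. All 82 cells held 355 mitotic UMIs, and the 81 positive for neither list held 219, or 1914 per 1000000. Ube2c and Pttg1 were at 88.6 and 77.1 CPM (counts of a gene per 1000000 UMIs of a class) in the GFP-negative library and at 51.0 and 43.5 CPM in RA. Without thinning, more than these shares of cells would be called positive in every class, for example 38.1% mitotic-positive and 36.9% S-phase-positive among endothelial-like cells of the GFP-positive library and 40.4% mitotic-positive among erythroid-like cells of the GFP-negative library.

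**Figure D1:**
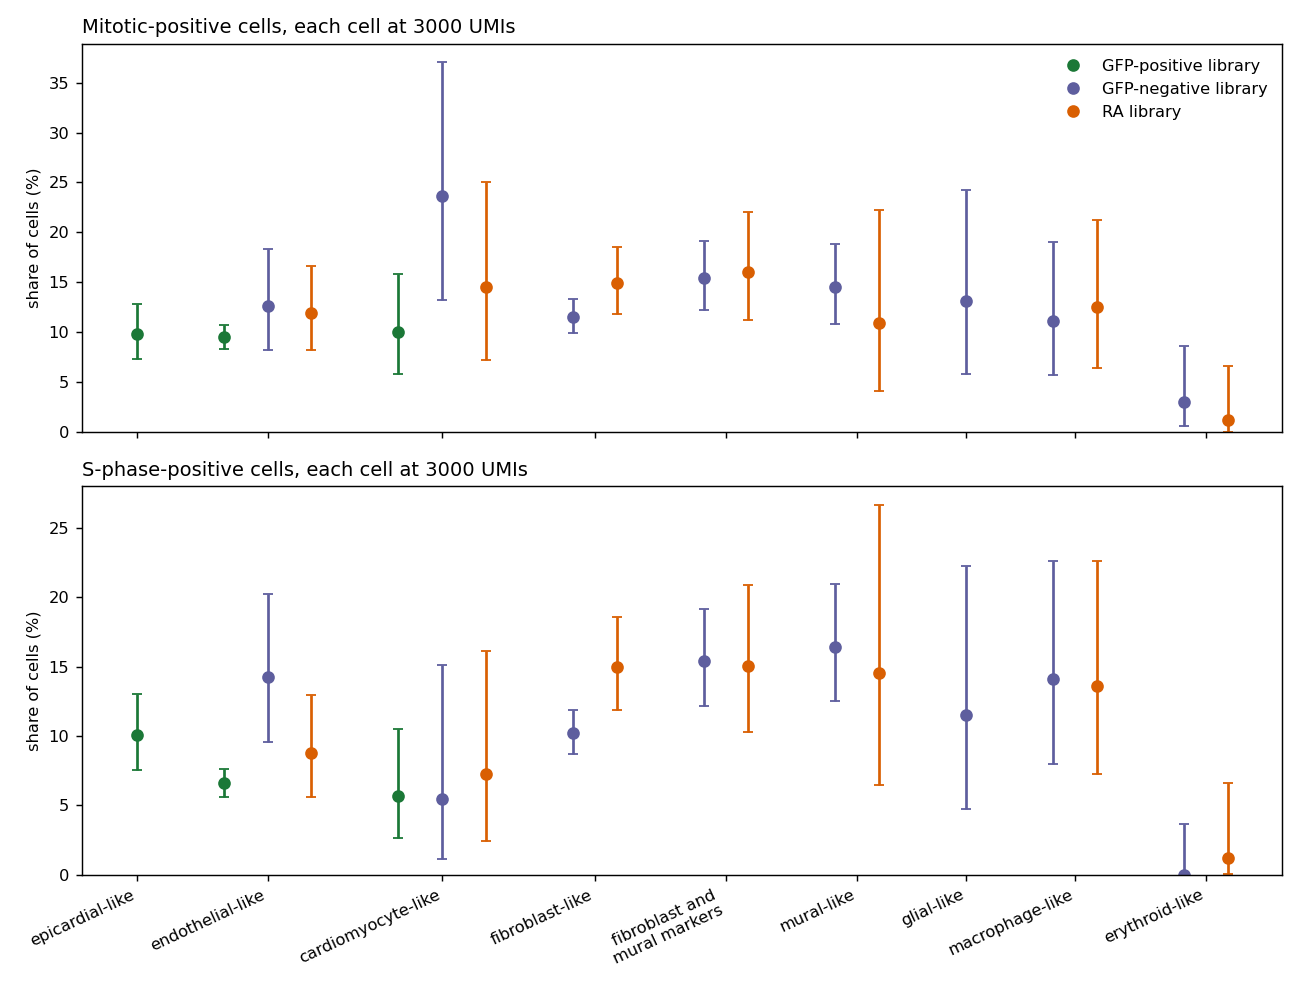
Share of mitotic-positive cells (upper panel) and S-phase-positive cells (lower panel) in percent, by class and library, with every cell thinned to 3000 UMIs; points are shares and bars are exact 95% intervals of counting error. Erythroid-like cells, whose UMIs are mostly haemoglobin, sit lowest, at 3.03% and 1.22% mitotic-positive. The cardiomyocyte-like cells of the GFP-negative library have the highest mitotic share, at 23.6% with a wide interval on 55 cells.

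The number of different genes read per cell was counted out of 23 mitotic and 12 replication genes. Among endothelial-like cells of the GFP-positive library, 872 cells had 1 mitotic gene, 257 had 2, 61 had 3 and 19 had 4, while 155 had 5 or more, 77 of them 10 or more, up to 19 genes. For the replication genes, 726 cells had 1, 218 had 2, 77 had 3 and 33 had 4, and the highest number was 8. Fibroblast-like cells of the GFP-negative library showed the same shape, with 115 of 1454 cells at 5 or more mitotic genes and a highest number of 20, against a highest number of 10 replication genes. Most mitotic calls in these endothelial-like cells thus rested on 5 or more genes, and most S-phase calls on 3 or 4.

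**Figure D2:**
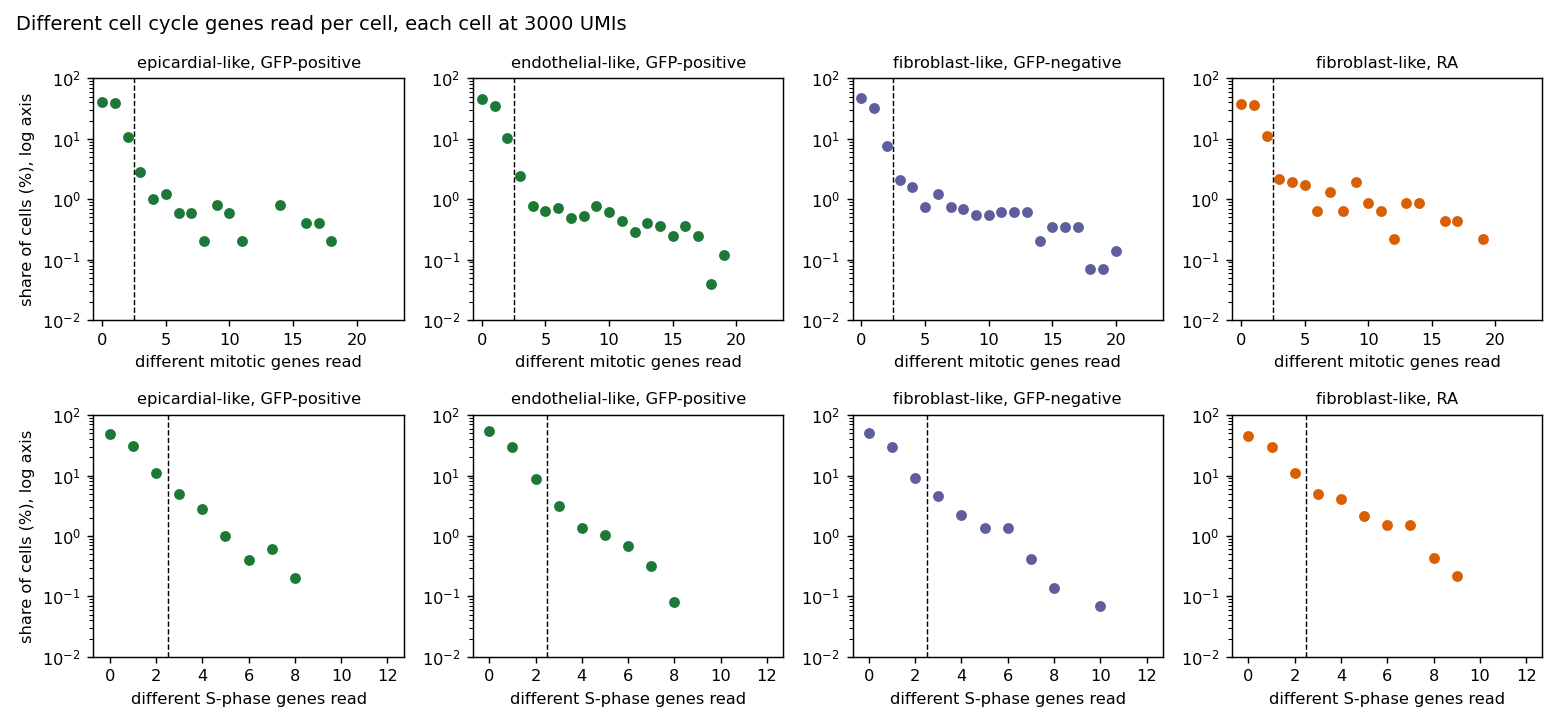
Share of cells in percent (log axis) by the number of different mitotic genes (upper row, 23 genes) and replication genes (lower row, 12 genes) read per cell at 3000 UMIs, in epicardial-like and endothelial-like cells of the GFP-positive library and fibroblast-like cells of the GFP-negative and RA libraries; the dashed line marks the threshold of 3 genes. The mitotic distributions have long tails to 18 genes or more, and the replication distributions end at 8 to 10 genes.

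The 2 calls overlapped in part. Among endothelial-like cells of the GFP-positive library 83 cells were positive for S phase only, 80 for both lists and 155 for mitosis only. Both calls would meet in 15.4 cells if they were independent. Fibroblast-like cells of the GFP-negative library had 85, 63 and 105 cells in these states (17.1 if independent), and epicardial-like cells 34, 16 and 33. Of S-phase-positive endothelial-like cells 49.1% were also mitotic-positive in the GFP-positive library. Among cardiomyocyte-like cells 5 were positive for both lists in the GFP-positive library, 1 in the GFP-negative library and 2 in RA. Mitotic-positive cells of most sets also held more UMIs before thinning. Their median was 19260 UMIs against 10939 in cells positive for neither list among endothelial-like cells of the GFP-positive library, a ratio of 1.76, and the ratio was 1.82 in epicardial-like cells, 1.39, 1.81 and 1.54 in cardiomyocyte-like cells of the GFP-positive, GFP-negative and RA libraries and 1.31 in fibroblast-like cells of the GFP-negative library. In endothelial-like cells of the GFP-negative library it was 1.01, and in macrophage-like cells of that library 0.935.

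The levels of each gene were then followed through the states, from neither list, through S phase only and both lists, to mitosis only, with a cell's state called without the gene in question. Sets with at least 50 mitotic-positive cells were used: endothelial-like cells of the GFP-positive library, fibroblast-like cells of the GFP-negative library and of RA, and cells with fibroblast and mural markers of the GFP-negative library. The genes chosen for the calls belong to the same programme, so the calls largely set the direction between states. These levels are given as a description, and the share of all genes that differ between mitosis only and S phase only was not counted. All 23 mitotic genes were higher in cells positive for mitosis only than for S phase only in 3 of the 4 sets, with intervals that left out equality, and 22 of 23 in cells with fibroblast and mural markers, where Bub1 had a log2 ratio of 1.66 with a lower bound of -0.51. The median level in mitotic-positive cells was 39.2 times that in cells positive for neither list among endothelial-like cells, and 51.9, 38.8 and 41.0 times in fibroblast-like cells of the GFP-negative library, in those of RA and in cells with fibroblast and mural markers.

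The mitotic genes did not all peak in the same state. In endothelial-like cells of the GFP-positive library Top2a, the topoisomerase that untangles sister chromosomes, was at 7.28, 24.1, 315 and 221 CPM through the 4 states. Cdk1, the kinase of mitotic entry, was at 16.2, 42.5, 373 and 243 CPM. Both were highest in cells positive for both lists, and so were the proliferation marker Mki67 (2.95, 6.0, 118 and 90.4 CPM) and the cyclin A gene Ccna2 (2.32, 6.07, 169 and 152 CPM). The B-type cyclin genes went the other way. Ccnb1 was at 2.67, 3.04, 89.1 and 129 CPM and Ccnb2 at 6.24, 1.52, 149 and 240 CPM. Their highest level stood in cells positive for mitosis only.

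Other mitotic genes were also highest in cells positive for mitosis only. Cenpa, the histone of the centromere, was at 24.1, 28.7, 225 and 430 CPM, Cenpf, a kinetochore protein gene, at 4.85, 2.28, 120 and 180 CPM, and Cenpe, a kinetochore motor gene, at 1.42, 1.52, 54.6 and 95.9 CPM. Ube2c, the conjugating enzyme of the anaphase-promoting complex, was at 8.45, 10.4, 378 and 560 CPM, its activator Cdc20 at 12.1, 16.9, 176 and 217 CPM and Pttg1 (securin, the inhibitor of separase) at 8.88, 14.0, 136 and 224 CPM. The mitotic kinase gene Aurka and its activator Tpx2 followed the same order, at 76.3 and 97.5 CPM in cells positive for mitosis only. The chromosomal passenger genes Aurkb, Birc5 and Cdca8, the midzone gene Prc1, the kinetochore gene Spc25, the mitotic entry gene Cdca3, the polo kinase gene Plk1 and the checkpoint kinase gene Bub1 were highest in cells positive for both lists, as for Birc5 at 409 CPM against 363 CPM for mitosis only. Of the 23 genes, 13 were highest in both lists and 10 in mitosis only among endothelial-like cells, against 5 and 18 in fibroblast-like cells of the GFP-negative library and 4 and 19 in the other 2 sets. The highest state was read from the levels alone, without an interval, and some levels lay close, as those of Birc5 do.

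In fibroblast-like cells of the GFP-negative library the order of the B-type cyclin genes was the same, with Ccnb1 at 2.78, 17.5, 110 and 244 CPM. Cdc20 was at 6.20, 6.71, 113 and 341 CPM and Cenpa at 13.5, 15.9, 177 and 614 CPM. Cdk1 and Top2a were again highest in cells positive for both lists, at 361 and 322 CPM. Across all 4 sets Cdk1, Aurkb and Spc25 had their highest level in cells positive for both lists, while Ccnb1, Ccnb2, Aurka, Cenpf, Cenpa, Cenpe, Ube2c, Tpx2, Pttg1 and Cdc20 had theirs in cells positive for mitosis only. Hmgb2, a chromatin protein gene, was the least specific of the mitotic list. It was at 136 CPM in endothelial-like cells positive for neither list, 311 CPM for S phase only, 1535 CPM for both and 1354 CPM for mitosis only, and 38.7% of its UMIs came from cells positive for neither list.

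Replication genes were read in cells of every state, and a cell positive for neither list is only one with fewer than 3 genes of each list read at 3000 UMIs. The clamp gene Pcna was at 36.8, 119, 241 and 81.9 CPM through the states in endothelial-like cells of the GFP-positive library, and 59.4% of its UMIs came from cells positive for neither list. The helicase genes Mcm5 (11.9, 97.6, 119 and 40.6 CPM) and Mcm6 (27.4, 129, 149 and 45.2 CPM), whose promoters are printed above, were near their highest level in S phase only. Mcm2, Mcm3, Mcm4 and Mcm7, the helicase partner gene Gins2 and the loading factor gene Cdc6 were also higher in S phase only than in mitosis only. In each of the 4 sets 9 of the 12 replication genes were higher in S phase only, with intervals that left out equality. The calls largely set that direction, since they placed cells by the number of replication genes read. Here too the share of all genes that differ between these states was not counted. The median level in S phase only was 4.76 times that in cells positive for neither list in endothelial-like cells and 5.03, 5.30 and 7.15 times in fibroblast-like cells of the GFP-negative library, in those of RA and in cells with fibroblast and mural markers.

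The nucleotide supply genes differed from the helicase genes. Rrm2, the small subunit gene of ribonucleotide reductase, was at 4.20, 21.3, 305 and 82.9 CPM in endothelial-like cells, so it was higher in mitosis only than in S phase only, by a log2 ratio of 1.93 (1.40 to 2.57). That ratio was 0.59 (0.11 to 1.09) in fibroblast-like cells of the GFP-negative library and 0.92 (0.36 to 1.53) in those of RA, but -0.50 (-1.07 to 0.06) in cells with fibroblast and mural markers. The large subunit gene Rrm1 was at 16.1, 61.2, 131 and 56.2 CPM and the thymidylate synthase gene Tyms at 32.4, 124, 353 and 139 CPM in endothelial-like cells. Only 13.4% of the UMIs of Rrm2 came from endothelial-like cells positive for neither list.

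E-type cyclin genes peaked in cells positive for both lists in all 4 sets. Ccne1 was at 1.46, 9.11, 54.6 and 10.2 CPM and Ccne2 at 1.87, 6.83, 52.1 and 8.17 CPM in endothelial-like cells of the GFP-positive library. In fibroblast-like cells of the GFP-negative library they were at 5.71, 19.3, 53.2 and 11.8 CPM and at 2.92, 17.6, 42.0 and 11.8 CPM. The D-type cyclin genes did not follow the wave. Ccnd2 was at 235, 355, 144 and 148 CPM in endothelial-like cells and at 181, 243, 95.2 and 111 CPM in fibroblast-like cells of the GFP-negative library, with its highest level in S phase only in all 4 sets. Ccnd1 was at 37.4, 50.1, 88.5 and 40.6 CPM in endothelial-like cells and at 32.9, 73.8, 35.5 and 26.2 CPM in those fibroblast-like cells. Cells positive for neither list held 84.8% of the UMIs of Ccnd2 and 75.4% of those of Ccnd1 among endothelial-like cells.

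**Figure D3:**
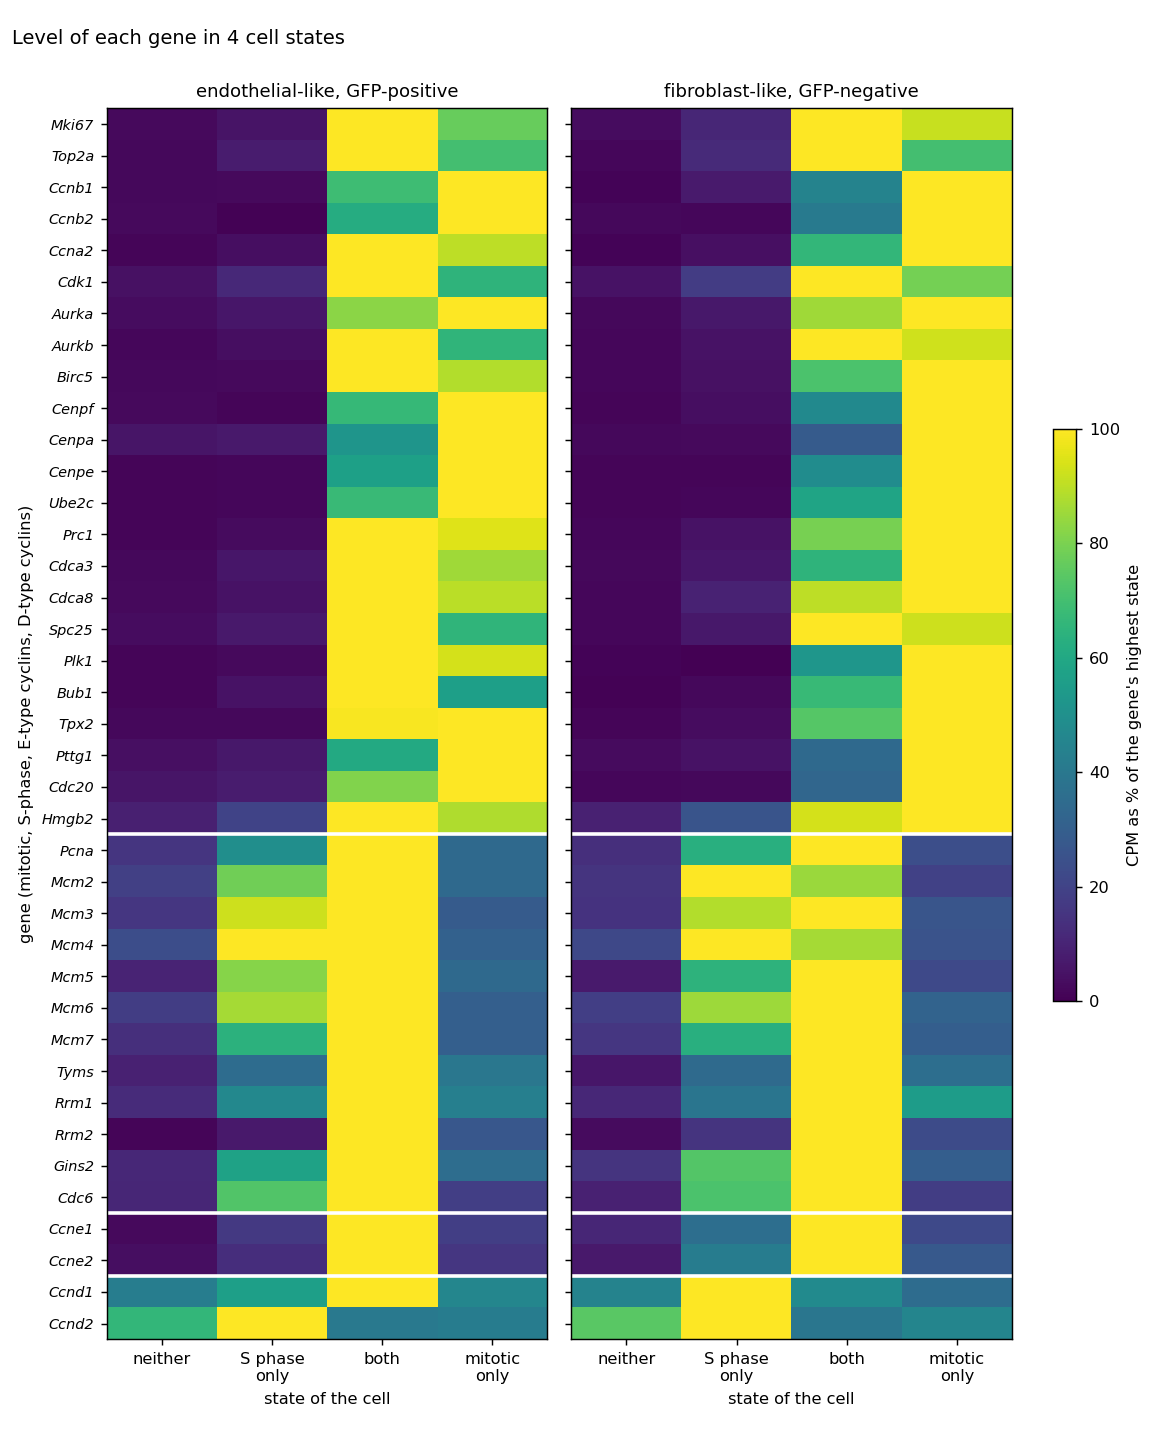
Level of each of the 39 genes in cells positive for neither list, for S phase only, for both and for mitosis only, as a percentage of the gene's highest state (CPM), in endothelial-like cells of the GFP-positive library and fibroblast-like cells of the GFP-negative library; white lines part the mitotic, replication, E-type and D-type cyclin genes. Ccnb1, Cenpa and Cdc20 are highest in mitosis only, Cdk1 and Ccne1 in both, and Ccnd2 in S phase only.

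Genes outside the 39 were read in the same states. A gene with at least 10 UMIs in the groups together was called where its ratio passed 1.5-fold and its interval left out equality. Between mitotic-positive cells and cells positive for neither list, 6.95% of all measured genes were called higher and 5.07% lower in endothelial-like cells of the GFP-positive library. The figures were 10% and 5.32% in fibroblast-like cells of the GFP-negative library, 8.89% and 4.92% in those of RA, and 9.88% and 4.21% in cells with fibroblast and mural markers. Other mitotic genes were called higher in 21 of 21 cases in 3 sets and in 20 of 20 measured cases in cells with fibroblast and mural markers. All 7 genes of cytokinesis and all 18 other replication genes were called higher in each set. In endothelial-like cells the median log2 ratio was 5.06 for the other mitotic genes, 4.67 for cytokinesis and 2.40 for the other replication genes, against -0.03 for all genes.

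Single genes show the range. Among other mitotic genes of endothelial-like cells the kinesin gene Kif2c (6.41) and the spindle gene Nusap1 (6.08) had the highest log2 ratios, and the condensin gene Smc4 (1.84) and the Cdk subunit gene Cks1b (1.95) the lowest. Among cytokinesis genes Kif20a (6.04) and Cep55 (5.83) stood highest, and Racgap1 (4.23) and the citron kinase gene Cit (0.68) lowest. Among other replication genes the checkpoint gene Clspn (4.78) and the licensing inhibitor gene Gmnn (3.77) were highest, and Slbp (1.37) and Ung (1.24) lowest. The regulators of the mitotic wave were called higher in all 4 sets, with Mybl2 (B-MYB) at log2 ratios of 4.78 to 5.76 and Foxm1 at 3.60 to 5.20. Of 20 E2F, RB and related genes 12, 13, 9 and 11 were called higher and 0 lower in endothelial-like cells, in fibroblast-like cells of the GFP-negative library, in those of RA and in cells with fibroblast and mural markers.

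Inhibitors of cyclin-dependent kinases moved in different directions. Cdkn2c (p18) was at 128 CPM in mitotic-positive endothelial-like cells against 9.68 CPM in cells positive for neither list, a log2 ratio of 3.72 (3.52 to 3.93), and it was called higher in the other 3 sets as well, at 3.58 to 4.16. Cdkn2d (p19) was called higher in all 4 sets, at 1.49 to 1.98. Cdkn2b (p15) fell in endothelial-like cells, at 2.56 CPM against 6.59 CPM (-1.31). Cdkn1c (p57) was called lower in fibroblast-like cells of the GFP-negative library, at 393 CPM against 665 CPM (-0.76), and lay between in the other sets. Ccnd2 was called lower in mitotic-positive cells of all 4 sets, at log2 ratios of -0.68 to -0.90, while Ccnd1 was called higher in 2 of them, at 0.59 in endothelial-like cells and 0.67 in cells with fibroblast and mural markers.

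Cells positive for S phase only were also set against cells positive for neither list, where 3.55% of measured genes were called higher and 1.91% lower in endothelial-like cells, 5.23% and 2.55% in fibroblast-like cells of the GFP-negative library, 4.56% and 2.21% in those of RA and 5.79% and 1.95% in cells with fibroblast and mural markers. The other replication genes were called higher in 18 of 18 cases, except in cells with fibroblast and mural markers with 17 of 18. Other mitotic genes were called higher in 7 of 20, 11 of 17, 5 of 13 and 5 of 9 measured cases in the same order of sets. Ccnd1 was called higher in fibroblast-like cells of the GFP-negative library (log2 ratio 1.17), of RA (1.19) and in cells with fibroblast and mural markers (1.18), and lay between in endothelial-like cells (0.43). Ccne2 was called higher in all 4 sets, at 1.93 to 3.35.

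The libraries were next compared within a class, the shares of cells at 3000 UMIs per cell and the gene levels over all UMIs of the class. The mitotic shares of endothelial-like cells differed by -3.16 percentage points (-8.99 to 1.46) between the GFP-positive and GFP-negative libraries and by -2.48 (-7.28 to 1.46) between the GFP-positive library and RA. Both intervals hold 0, the first under all 10 alternatives and the second under 9, with -8.85 points against RA where 2 different genes made a cell positive. The S-phase share of the GFP-positive library lay 7.71 percentage points under that of the GFP-negative library, a difference of -7.71 (-13.7 to -2.86), whose interval also left out 0 under 9 of 10 alternatives and held 0 without thinning. Against RA the difference was -2.19 (-6.50 to 1.17). Both comparisons share the GFP-positive library. Within cells called capillary from their markers the S-phase shares were 12.3% (8.21% to 17.5%) in the GFP-positive and 25.7% (16.2% to 37.2%) in the GFP-negative library. In endocardial cells they were 4.89% (16 of 327) and 6.25% (3 of 48), and in cells with no or tied subtype markers 8.40% and 6.67%. Capillary cells were 211 of 2480 endothelial-like cells in the GFP-positive and 74 of 182 in the GFP-negative library. The part of this make-up in the S-phase shares and replication gene levels was not tested.

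The replication genes followed. Between the GFP-positive and GFP-negative libraries, where 11.8% of all measured genes were called higher and 6.22% lower, 0 of 12 were called higher and 4 lower, with a median log2 ratio of -0.55 over the list against 0.09 over all genes. The number called was 8 with ratios centred on the median gene, 7 under a stricter class gate and 8 without the 5% of cells with the most UMIs. Pcna was at 51.4 CPM in the GFP-positive and 80.8 CPM in the GFP-negative library (-0.66), Mcm3 at 20.4 and 33.7 CPM (-0.73), Mcm4 at 15.2 and 22.6 CPM (-0.59) and Mcm5 at 22.1 and 37.5 CPM (-0.77). Of the 23 mitotic genes 3 were called higher, Cenpf at 26.9 and 12.5 CPM (1.08), Ube2c at 75.0 and 40.9 CPM (0.87) and Prc1 at 21.0 and 13.0 CPM (0.66). Ccnb2 was called lower at 34.1 and 54.8 CPM (-0.69), and 19 mitotic genes lay between. Without the 5% of cells with the most UMIs 1 mitotic gene was called higher and 2 lower, so the leading direction turned, and with ratios centred on the median gene 2 were called higher and 2 lower. Of the other lists, 3 of 18 replication genes were called lower, among them Uhrf1 (-1.01) and Hells (-0.84), 0 of 21 mitotic genes were called, and Cit was called higher (1.87) among cytokinesis genes.

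Against RA, where 14.2% of measured genes were called higher and 9.14% lower, 9 of 23 mitotic genes and 6 of 12 replication genes were called lower in endothelial-like cells of the GFP-positive library and none of either list higher. The mitotic genes were Ccnb2, Ccna2, Cdk1, Cenpe, Plk1, Bub1, Tpx2, Cdc20 and Hmgb2, with Bub1 at 3.66 CPM in the GFP-positive library and 8.29 CPM in RA (-1.20) and Cdc20 at 39.1 and 64.5 CPM (-0.72). The replication genes were Mcm2, Mcm3, Mcm4, Mcm5, Mcm7 and Tyms, with Mcm7 at 23.6 and 45.1 CPM (-0.94). The median log2 ratio was -0.48 over the mitotic list and -0.57 over the replication list, against 0.04 over all genes. Other mitotic genes had 10 of 21 called lower, such as Kif2c (-1.49), and cytokinesis genes 4 of 7, such as Kif20a (-1.38). Leaving out the 5% of cells with the most UMIs in each library gave 2 mitotic genes higher and 4 lower.

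The D-type cyclin genes parted in endothelial-like cells. Ccnd1 fell to 40.5 CPM in the GFP-positive library, against 114 CPM in the GFP-negative library (log2 ratio -1.49, -1.69 to -1.29) and 78.0 CPM in RA (-0.95, -1.14 to -0.74). Ccnd2 was at 227 CPM in the GFP-positive library, against 149 CPM in the GFP-negative library (0.61, 0.45 to 0.78) and 175 CPM in RA (0.37, 0.25 to 0.50, not called). The cells of the libraries were not of 1 kind. Cells called capillary from their markers numbered 211 of 2480 in the GFP-positive library, 74 of 182 in the GFP-negative library and 74 of 251 in RA, and these capillary cells had Ccnd1 at 121, 203 and 138 CPM, while endocardial cells had 24.6, 18.7 and 23.1 CPM in that order. The share of capillary cells thus moved with Ccnd1, and its part in the difference was not tested.

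Among inhibitors, Cdkn1c was at 411 CPM in endothelial-like cells of the GFP-positive library, against 856 CPM in the GFP-negative library (-1.06) and 1023 CPM in RA (-1.32). Cdkn1a (p21), the target of p53, was at 125 CPM in the GFP-positive library, against 44.2 CPM in the GFP-negative library (1.49) and 33.8 CPM in RA (1.88). Cdkn2d was called higher against both libraries, and Cdkn2c against the GFP-negative library.

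**Figure D4:**
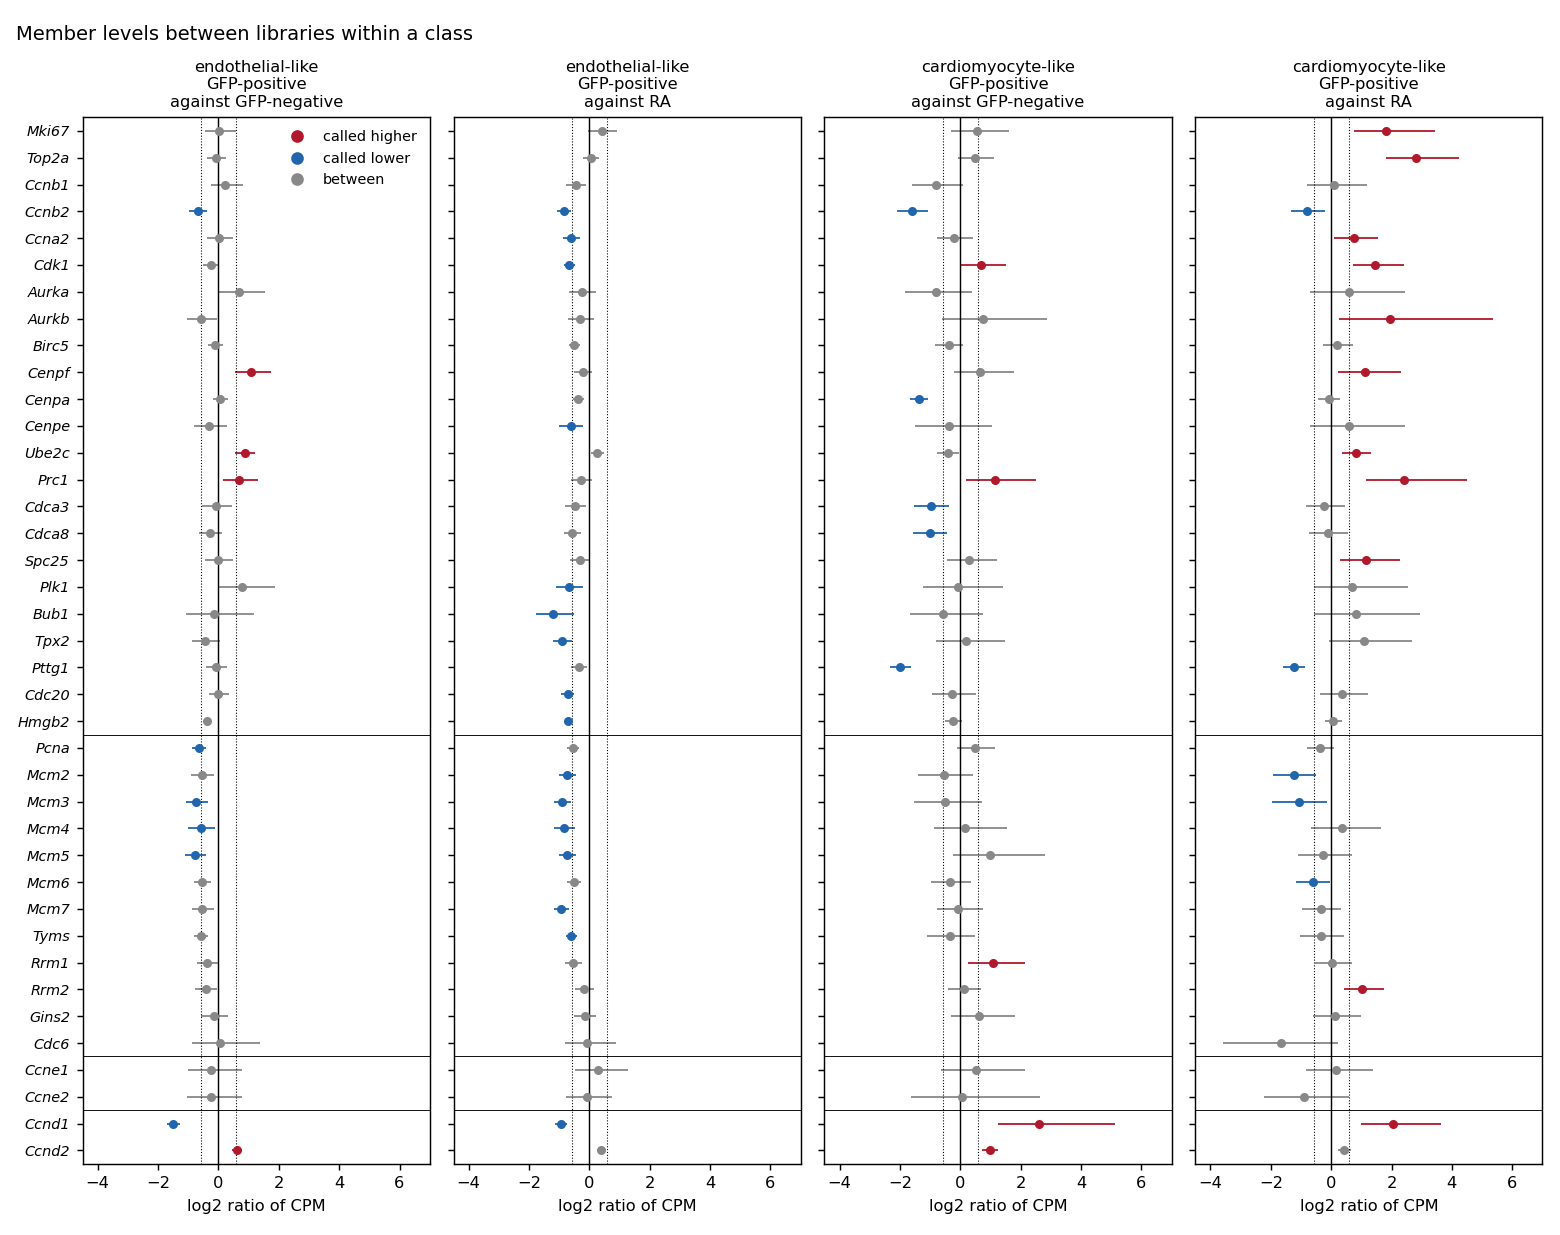
Log2 ratio of class CPM for each of the 39 genes between the GFP-positive library and the GFP-negative or RA library, in endothelial-like and cardiomyocyte-like cells; points are ratios, bars are 95% intervals of counting error, dotted lines mark 1.5-fold and colours mark the call. In cardiomyocyte-like cells Pttg1 is lower in the GFP-positive library at -2.0 and -1.23 and Ccnd1 is higher at 2.62 and 2.06.

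In cardiomyocyte-like cells the mitotic share of the GFP-positive library lay under that of the GFP-negative library, by -13.6 percentage points (-27.6 to -1.68). The interval held 0 under 7 of 10 alternatives, among them a second random draw of the thinned UMIs at -9.38 points (-22.7 to 1.27), so this difference rests on few cells. Against RA the difference was -4.43 points (-15.8 to 4.89). The S-phase share differed by 0.206 points (-9.93 to 6.67) against the GFP-negative library and by -1.59 points (-11.0 to 5.25) against RA. By their markers 25 of the 159 GFP-positive cells were working atrial, 56 nodal and 36 of the His bundle kind, while 45 of 55 GFP-negative cells and 63 of 69 RA cells were working atrial.

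Against the GFP-negative library, where 11.5% of measured genes were called higher and 4.94% lower, 2 mitotic genes were called higher and 5 lower in cardiomyocyte-like cells of the GFP-positive library. The genes that fell were Pttg1 at 45.2 CPM in the GFP-positive and 180 CPM in the GFP-negative library (-2.0, -2.35 to -1.65), Ccnb2 at 24.4 and 73.5 CPM (-1.60), Cenpa at 84.9 and 219 CPM (-1.37), Cdca8 at 27.6 and 55.4 CPM (-1.02) and Cdca3 at 25.6 and 50.3 CPM (-0.98). Cdk1 at 40.7 and 24.5 CPM (0.70) and Prc1 at 24.4 and 10.3 CPM (1.16) were called higher, as was the replication gene Rrm1 at 34.0 and 15.5 CPM (1.08). Cdc6 had 6 and 2 UMIs and was not measured. Other mitotic genes had 1 of 19 called higher (Nusap1, 1.75) and 7 lower, such as Cdc25c (-2.28).

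Against RA, where 15.8% of measured genes were called higher and 6.71% lower, 9 mitotic genes were called higher in the GFP-positive library and 2 lower. Top2a was at 53.2 CPM in the GFP-positive library and 7.15 CPM in RA (2.80), Prc1 at 24.4 and 4.08 CPM (2.42), Aurkb at 9.61 and 2.04 CPM (1.94, on 2 UMIs in RA) and Mki67 at 23.4 and 6.13 CPM (1.83). Cdk1, Spc25, Cenpf, Ube2c and Ccna2 were called higher as well, at log2 ratios of 0.75 to 1.46. Pttg1 at 45.2 and 106 CPM (-1.23) and Ccnb2 at 24.4 and 41.9 CPM (-0.79) were called lower. Of the replication genes Rrm2 was called higher at 51.0 and 24.5 CPM (1.03), and Mcm2 (-1.24), Mcm3 (-1.07) and Mcm6 (-0.61) lower. The median log2 ratio of the mitotic list was -0.26 against the GFP-negative library and 0.70 against RA, beside 0.12 and 0.13 over all genes.

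These counts come from few cells, so counting intervals on summed UMIs are too narrow. Mitotic-positive cells held 80.7%, 86.0% and 65.0% of the mitotic UMIs of cardiomyocyte-like cells in the GFP-positive, GFP-negative and RA libraries, and the 3 richest cells held 33.3%, 34.5% and 39.6%. Of the 29 UMIs of Top2a in the GFP-negative library, 14 came from 1 cell. Within mitotic-positive cells called without the gene itself, Top2a was at 372 CPM in the GFP-positive library, 87.1 CPM in the GFP-negative library and 26.3 CPM in RA, with Cdk1 likewise at 251, 30.3 and 19.7 CPM and Mki67 at 153, 41.7 and 16.4 CPM. Pttg1 ran the other way in those cells, at 258, 529 and 551 CPM, and Ccnb2 was at 160, 197 and 210 CPM. Without the 5% of cells with the most UMIs, 8 mitotic genes were called higher and 0 lower against the GFP-negative library, and 3 higher and 5 lower against RA.

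D-type cyclin genes were higher in cardiomyocyte-like cells of the GFP-positive library. Ccnd1 was at 27.6 CPM (86 UMIs), against 3.87 CPM (3 UMIs) in the GFP-negative library (log2 ratio 2.62, 1.24 to 5.14) and 6.13 CPM (6 UMIs) in RA (2.06, 0.99 to 3.65). Ccnd2 was at 336 CPM, against 169 CPM in the GFP-negative library (0.99, 0.73 to 1.27) and 248 CPM in RA (0.43, 0.23 to 0.64, not called). Over the whole class, Ccnd1 was thus lower in endothelial-like cells and higher in cardiomyocyte-like cells of the GFP-positive library. By subtype, GFP-positive nodal, His bundle and working atrial cells had Ccnd1 at 24.8, 60.0 and 19.4 CPM and Ccnd2 at 317, 550 and 241 CPM. Working atrial cells of the GFP-negative library and RA had Ccnd1 at 4.69 and 5.69 CPM and Ccnd2 at 184 and 238 CPM. The part of subtype make-up in the class differences was not tested. Cdkn1c was at 123 CPM in cardiomyocyte-like cells of the GFP-positive library, against 313 CPM in the GFP-negative library (-1.34) and 73.5 CPM in RA (0.74), so its direction depended on the library it was set against. Cdkn2d was called higher against both, at 1.24 and 1.02.

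Fibroblast-like cells were compared between the GFP-negative library and RA, where 10.1% of measured genes were called higher and 6.71% lower. The mitotic share differed by -3.41 percentage points (-7.34 to 0.177), and its interval left out 0 under 4 of 10 alternatives, down to -16.3 points without thinning. The S-phase share differed by -4.79 points (-8.68 to -1.24), with an interval that left out 0 under all 10 alternatives. No mitotic gene was called higher and 2 were called lower, Aurkb at 13.3 CPM in the GFP-negative library and 19.96 CPM in RA (-0.59) and Bub1 at 4.75 and 7.44 CPM (-0.65). Of the replication genes 8 of 12 were called lower, with Rrm2 at 33.9 and 63.5 CPM (-0.91), Mcm3 at 23.4 and 41.1 CPM (-0.82), Mcm6 at 48.6 and 81.0 CPM (-0.74), Pcna at 68.5 and 110 CPM (-0.68), Rrm1 (-0.68), Mcm2 (-0.65), Mcm4 (-0.63) and Mcm7 (-0.62). The number of replication genes called was 4 under a stricter class gate and 4 without the 5% of cells with the most UMIs. Ccne2 was called lower at 6.98 and 14.0 CPM (-1.0).

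The median log2 ratio was -0.64 over the replication list and -0.16 over the mitotic list in fibroblast-like cells, against -0.06 over all genes. Other replication genes had 5 of 18 called lower, such as Gmnn (-0.95) and Pola1 (-0.85). Cdkn1c was higher, at 614 CPM in the GFP-negative library and 260 CPM in RA (1.24), while Ccnd1 at 35.4 and 36.7 CPM and Ccnd2 at 174 and 162 CPM lay between. Mitotic-positive cells held 79.5% and 79.8% of the mitotic UMIs in the GFP-negative library and RA.

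In macrophage-like cells, compared between the GFP-negative library and RA with 4.19% of measured genes called higher and 6.69% lower, the mitotic share differed by -1.39 points (-11.7 to 8.59) and the S-phase share by 0.505 points (-10.4 to 11.1). Ccnb2 was called higher at 49.5 and 22.9 CPM (1.09). Mki67 at 16.5 and 37.9 CPM (-1.17), Top2a (-0.99), Cdk1 (-0.97) and Prc1 (-1.57) were called lower. So were the replication genes Mcm6 at 39.6 and 82.6 CPM (-1.05), Tyms (-0.70) and Rrm2 (-2.15, on 5 UMIs in the GFP-negative library and 23 in RA). Bub1, Ccne1 and Ccne2 had too few UMIs to be measured. Only 11 macrophage-like cells of each library were mitotic-positive, so here too counting intervals on summed UMIs are too narrow.

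Within the GFP-positive library, epicardial-like and endothelial-like cells had mitotic shares that differed by 0.364 points (-2.39 to 3.53). The S-phase share was higher in epicardial-like cells, by 3.47 points (0.761 to 6.60), and that interval held 0 under 3 of 10 alternatives. Ccnd1 was at 20.1 CPM (17.2 to 23.3) in epicardial-like and 40.5 CPM (38.5 to 42.7) in endothelial-like cells, and Ccnd2 at 236 and 227 CPM.

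Across all 18 sets of a class and a library with at least 50 cells, the D-type cyclin genes differed by class. Ccnd1 was highest in mural-like cells of RA at 235 CPM (201 to 274), followed by glial-like cells of the GFP-negative library at 180 CPM (148 to 217) and endothelial-like cells of that library at 114 CPM (99.9 to 129). The first 2 intervals overlap, and both lie above the third. Mural-like cells of the GFP-negative library had 87.4 CPM and macrophage-like cells 84.8 and 98.7 CPM in the GFP-negative and RA libraries. Erythroid-like cells of RA had 0 UMIs, with an upper limit of 2.77 CPM. Haemoglobin made up 90.8% of the UMIs of those cells, which lowers the CPM of their other genes. Ccnd2 was highest in mural-like cells of RA at 523 CPM (471 to 579), then in cardiomyocyte-like cells of the GFP-positive library at 336 CPM (316 to 357) and mural-like cells of the GFP-negative library at 324 CPM (306 to 344), and the last 2 intervals overlap. Glial-like and macrophage-like cells held little of it, at 85.7 CPM and at 56.1 and 72.3 CPM.

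The mitotic genes also had their highest levels in different sets. Glial-like cells of the GFP-negative library were highest for Mki67 (42.9 CPM), Top2a (92.3 CPM), Ube2c (145 CPM), Prc1 (57.7 CPM) and Aurkb (49.5 CPM). Cardiomyocyte-like cells of the GFP-negative library were highest for Pttg1 (180 CPM), Cenpa (219 CPM), Ccnb2, Cdca3, Cdca8 and Bub1. Mural-like cells of RA were highest for Cdk1 (98.6 CPM), Spc25, Pcna (144 CPM), Mcm2, Mcm4, Mcm7 (77.5 CPM), Tyms and Gins2. These are small sets of 63, 57 and 56 cells.

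**Figure D5:**
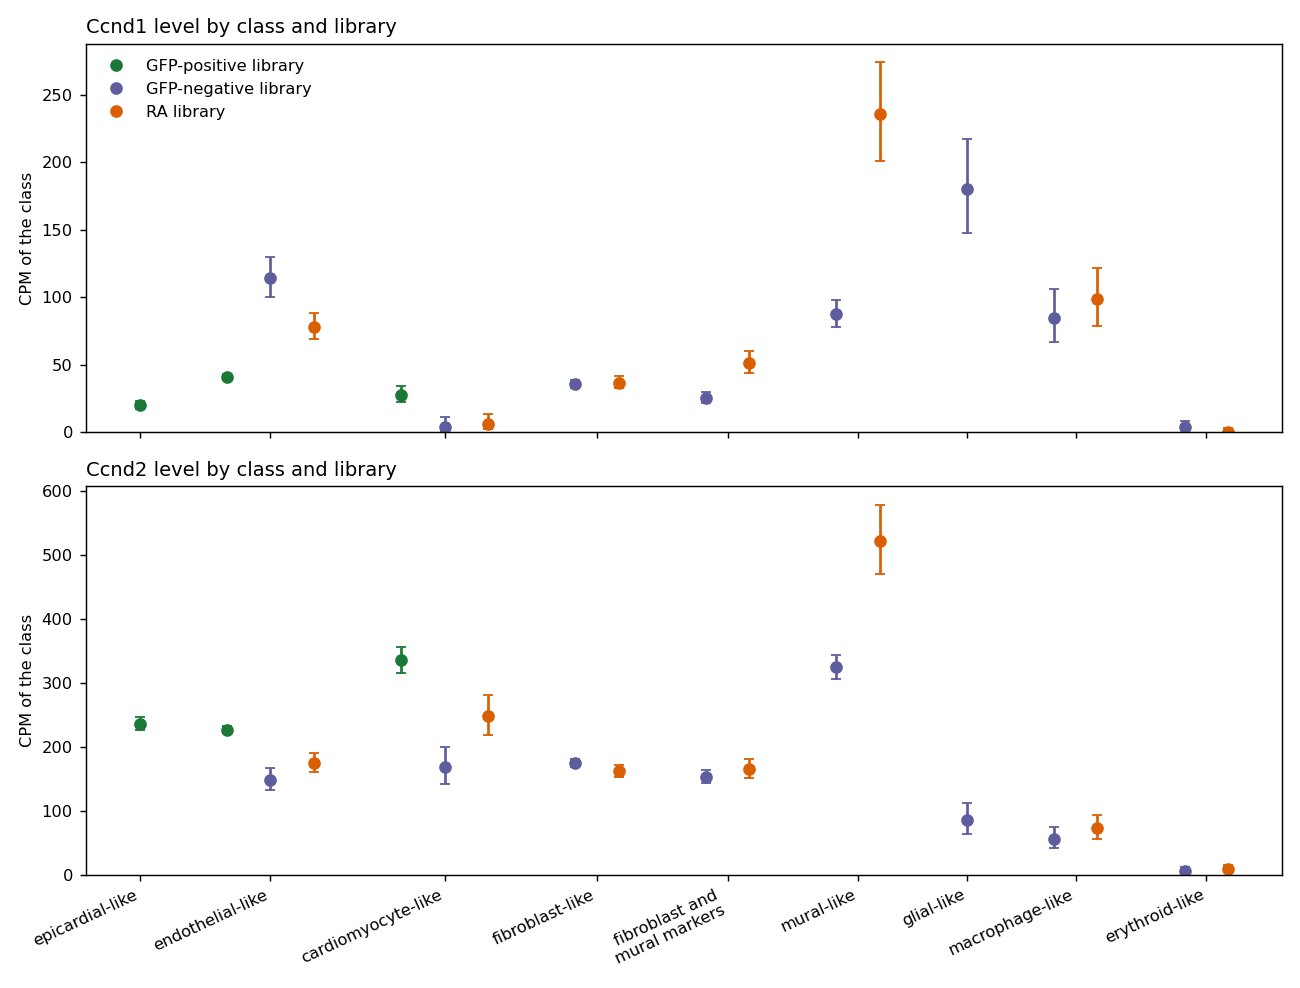
Level of Ccnd1 (upper panel) and Ccnd2 (lower panel) in CPM by class and library, with exact 95% Poisson intervals of counting error as bars. Ccnd1 is highest in mural-like cells of RA at 235 CPM and in glial-like cells at 180 CPM, and Ccnd2 in mural-like cells of RA at 523 CPM. Both are low in erythroid-like cells. Haemoglobin made up 91.2% of their UMIs in the GFP-negative library and 90.8% in RA, which lowers the CPM of their other genes.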

How the data were processed

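Droplet libraries were made from 3 cell samples, 1 library per group, with Cell Ranger and the mm9 build per the submitters' processing notes, which do not give a version. The files the authors deposited hold UMI counts for each barcode and gene, not normalized. No annotation of cell classes was used. Barcodes with fewer than 500 genes (46 GFP-positive, 240 GFP-negative and 153 RA) or over 50% mitochondrial UMIs (11, 4 and 8) were removed. Each of 11 marker sets (81 markers) was scored as the mean of ln(1 + UMIs per 10000), with cuts between the 2 humps of a score, placed after the scores were seen, and at least 3 markers read. Within 0.1 of the mural cut lay 141 cells of the GFP-negative library and 73 of RA, the most of any class there, against 0 to 2 cells at the cardiomyocyte cut. Cells of more than 1 class were left out as mixed (41 GFP-positive, 61 GFP-negative and 23 RA cells), except for some cells with fibroblast markers. Those that also passed the epicardial cut were always called epicardial-like. Those that also passed the glial cut were called glial-like where the glial score was higher, and were otherwise left out as mixed. Those that also passed the mural cut were called mural-like where the mural score was higher, and were otherwise kept as their own set. Epicardial-like cells of the GFP-positive library had a median fibroblast score of 1.43, above the fibroblast cut of 1.2. Cells in no class numbered 38, 139 and 39. No doublet caller was run. Classes were compared at 50 cells or more, and states used cells thinned to 3000 UMIs, which left out 88 GFP-negative and 20 RA cells. CPM are UMIs of a gene per 1000000 UMIs of the class. Shares have exact Clopper-Pearson intervals, CPM exact Poisson intervals and ratios exact conditional binomial intervals, at 95%. A prior of 0.5 UMI was added for fitted ratios. A share difference has its interval from the bounds of both shares. There was no test across libraries. Genes named outside the 39 were the 2 highest and 2 lowest of a list or genes called in a comparison. The genes, lists and markers were chosen with earlier results of these data known. Promoter windows came from RefSeq, GRCm38.p6, which is not the build of the files. Python 3.11.15, numpy 2.4.6, scipy 1.17.1, pandas 2.3.3 and matplotlib 3.10.9 were used, and the calculations were tested on simulated data.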

Additional observations from a re-analysis of the deposited data

How the results depend on the processing

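No paired analysis was possible because each group was 1 library. Of the 140 share differences recomputed under 10 alternatives, 34 changed sign, 2 of them where the main interval left out 0 and 32 where it held 0. By size, 126 kept within their counting interval without turning a difference whose interval left out 0. Without thinning the mitotic share difference between the GFP-positive and GFP-negative libraries in cardiomyocyte-like cells was 2.18 percentage points, with the sign turned. The other mitotic differences that moved without thinning were -16.3 in fibroblast-like cells (GFP-negative minus RA) and 9.08 between epicardial-like and endothelial-like cells. S-phase differences without thinning were -2.14 in endothelial-like cells between the GFP-positive and GFP-negative libraries and -7.03 between the GFP-positive library and RA, 11.3 in cardiomyocyte-like cells between the GFP-positive and GFP-negative libraries, -20.9 in fibroblast-like cells and 17.1 between epicardial-like and endothelial-like cells. Thinned to 1500 UMIs the S-phase difference between epicardial-like and endothelial-like cells was -0.0113, and with 5 different genes it was 0.0717. Thinned to 6000 UMIs the mitotic difference was 9.33 in macrophage-like cells and the S-phase difference -7.89 in endothelial-like cells (GFP-positive minus RA). With 2 different genes the mitotic differences were -8.85 in endothelial-like cells (GFP-positive minus RA) and 10.4 in macrophage-like cells.

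Of the counts of genes called, 60 stayed within 1.5-fold, 9 moved further and 3 changed their leading direction. Mitotic genes called in fibroblast-like cells numbered 1 with the total taken without haemoglobin and mitochondrial UMIs and 1 with ratios centred on the median gene. Replication genes called in endothelial-like cells between the GFP-positive and GFP-negative libraries numbered 8 with centring, 7 under a stricter class gate and 8 without the 5% of cells with the most UMIs, and those in fibroblast-like cells 4 under the stricter gate and 4 without those cells. Without those cells 3 mitotic genes were called in endothelial-like cells against the GFP-negative library (1 higher and 2 lower). In cardiomyocyte-like cells 8 were called against the GFP-negative library (8 higher and 0 lower) and 8 against RA (3 higher and 5 lower), with 2 and 0 replication genes called. The cause was not tested. A second random draw, a minimum of 1000 genes, a filter of 1 UMI, and leaving out Hmgb2, Pttg1, Pcna and Tyms moved none of the results they were run on past its counting interval or 1.5-fold. The number of cells limits the cardiomyocyte-like shares, which rest on 159, 55 and 69 cells.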

Other observations

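Within endothelial-like cells the subtypes set by marker UMIs differed in their mitotic shares. In the GFP-positive library capillary cells had 15.2% (10.6% to 20.7%, 32 of 211) mitotic-positive cells and endocardial cells 3.67% (1.91% to 6.32%, 12 of 327), and these intervals do not overlap. Arterial (9.40%, 41 of 436), venous (8.92%, 78 of 874) and lymphatic cells (8.33%, 11 of 132) lay between, as did cells with no or tied subtype markers (12.2%, 61 of 500). In the GFP-negative library the shares were 18.9% (14 of 74) in capillary and 4.17% (2 of 48) in endocardial cells, and in RA 16.2% (12 of 74) and 10.2% (9 of 88). The S-phase-positive shares of capillary cells were 12.3% in the GFP-positive library, 25.7% in the GFP-negative library and 17.6% in RA.

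Among cardiomyocyte-like cells of the GFP-positive library 4 of 56 nodal cells (7.14%), 1 of 36 His bundle cells (2.78%) and 3 of 25 working atrial cells (12%) were mitotic-positive, while 8 of 42 cells with no or tied subtype markers were (19.0%). Working atrial cells had 12 of 45 (26.7%) in the GFP-negative library and 10 of 63 (15.9%) in RA. Subtype shares on so few cells have wide intervals.

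In erythroid-like cells, of the 418 mitotic UMIs in the GFP-negative library 146 were of Ube2c and 127 of Pttg1. Barcodes with fewer than 500 genes held 83.7, 876 and 681 mitotic UMIs per 1000000 outside haemoglobin in the GFP-positive, GFP-negative and RA libraries, on 19, 132 and 74 UMIs.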
